A study of Mus musculus with 4 samples.

Results

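The surface antibody panel is a set of DNA-barcoded antibodies read by CITE-seq, a method that counts antibody tags and RNA in the same cells. The rule took every row of the tag table for monocytes and macrophages whose name does not begin with IgG. That gave 163 of 172 rows, and the other 9 rows are isotype controls, antibodies carrying the same kind of barcode but with no known target on these cells. The tags were read in 10131 cells of 1 library, made from subcutaneous tumours of LLC, the Lewis lung carcinoma line, pooled from 3 C57BL/6J mice. The same table holds RNA of 8155 cells of a second LLC library, from mice of the strain F11r fl/fl LysM-Cre- (floxed F11r without the myeloid LysM-driven Cre), and of 2297 cells of a library from B16 melanoma tumours in C57BL/6J mice, each also a pool of 3 mice. Neither of those had any tag counts, and no treatment is given for any of the libraries. Each group is 1 library, so no difference has a replicate check, no p-value is given, and exact 95% intervals in brackets cover counting error only.

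A tag count reads protein on the cell surface, which depends on translation, transport and shedding as well as on RNA. In tumours, blood monocytes carrying Ly6C enter and mature into macrophages, and surface proteins are the usual means of telling these states apart. Macrophage proteins such as the mannose receptor CD206 and folate receptor beta take up ligands, MHC class II presents peptides to T cells, and CD80, CD86 and CD274 (PD-L1) set the costimulatory or inhibitory signal beside it. CD40, the receptor named in the study's title, was not analysed here as a tag.

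Cells with extreme tag counts were left out before any value was computed. A cell stayed when its total of unique molecular identifiers (UMIs) over all tags lay between the 1st and 99th percentile, 136 to 2939.5, and its summed isotype UMIs did not exceed 6, the 99th percentile. That kept 9862 cells and left out 269, which held 7.93% of all tag UMIs and included the cell with the highest total, 24507. Kept cells had a median of 536 tag UMIs and 4523 RNA UMIs, and the logs of the 2 totals correlated over cells at r = 0.70. No doublet caller was run. The tag library shared 18 cell barcodes with the other LLC library, 0.178% of its own, and 6 with the B16 library. The deposited annotation gives 10 subsets with at least 50 cells, from 73 cells of Immature TAM-1 to 2493 of TAM-4 (TAM stands for tumour-associated macrophage). TAM-1 had 4 tagged cells and is left out of comparisons between subsets.

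Of the 163 tags, 50 were at least 2-fold over the highest isotype control in UMIs per cell, which is 30.7% of the panel. These 50 held 95.7% of all tag UMIs. Another 24 tags lay between 1-fold and 2-fold and held 2.38%, and 89 lay below the control and held 1.82%. The reference was the control IgG1-Rat-l, at 0.469 UMIs per cell (0.456 to 0.483), which had at least 1 UMI in 32.6% of cells. The second isotype control, IgG1-Rat-k, was at 0.210, and the other 7 were between 0.0208 and 0.0717 UMIs per cell. Just inside the 2-fold limit were CD49d at 2.19, CD301a at 2.07 and MERTK at 2.05 times the control. Just outside were TLR4 at 1.98, Integrin-b7 at 1.93 and CD169 at 1.83 times the control. The sources used here do not say which control matches which antibody. The choice of cells used the isotype sums, so it also lowered this reference. IgG1-Rat-l had 9012 UMIs in all cells and 4625 in kept cells, whereas CD11b had 2383727 and 2234166. The folds over the control thus depend on which cells were left out. With no cell left out 38 tags were at least 2-fold over the highest control. Against the second control, an alternative chosen after seeing the data, 77 tags were at least 2-fold over, and against the mean of the controls 92 were.

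**Figure D1:**
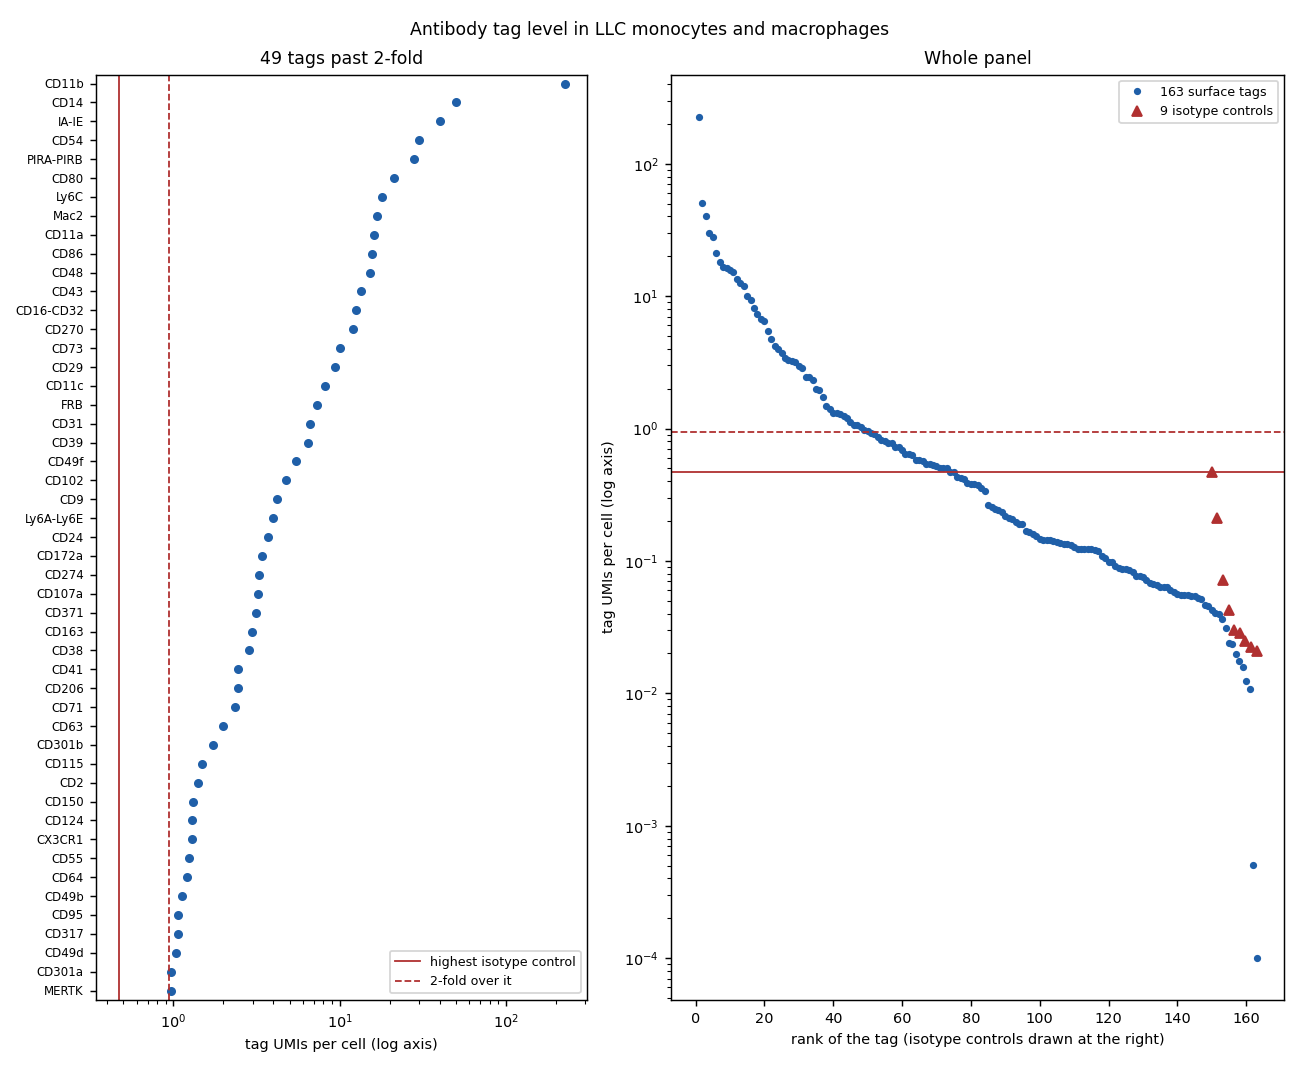
Tag UMIs per kept cell on log axes, for 49 of the 50 tags at least 2-fold over the highest isotype control (left) and for all 163 tags by rank with the 9 isotype controls as triangles (right). The solid line marks the highest isotype control at 0.469 UMIs per cell and the dashed line 2-fold over it, and the tags pass through both lines without a gap.

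Integrins and other adhesion proteins held 3 of the 10 brightest tags, CD11b, CD54 and CD11a. CD11b, the alpha chain of the complement receptor Mac-1, had 227 UMIs per cell (226 to 227), 483-fold over the control, and alone made up 34.2% of all tag UMIs. Every kept cell carried it, with a median of 183 UMIs and quartiles of 114 and 290. Among 11 integrin tags 8 were above the control, including CD11a, the alpha chain of LFA-1, 34.5-fold over the control, CD29, the common beta-1 chain, at 9.34 UMIs per cell, and CD11c at 8.19. Of 12 other adhesion tags 9 were above, led by CD54 (ICAM-1, the ligand of LFA-1) at 29.9 UMIs per cell and CD48, a ligand of CD244, at 15.3. CD31, the endothelial and leukocyte adhesion protein PECAM-1, had 6.66 UMIs per cell.

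CD14, the co-receptor for lipopolysaccharide on monocytes and macrophages, was the second brightest tag. It had 50.3 UMIs per cell, and 99.9% of cells carried at least 1. Of 7 monocyte tags 6 were above the control, with Ly6C at 18.0 UMIs per cell and the sialomucin CD43 at 13.5. Of 13 macrophage tags 7 were above, led after CD14 by the galectin Mac2 at 16.7 UMIs per cell and FRB, folate receptor beta, at 7.35. CD206 had 2.45 UMIs per cell and the high-affinity Fc receptor CD64 had 1.21. CD11b and CD14, usual markers of these cells, were thus read on nearly every cell, although the sources used here do not say by which markers the cells were chosen.

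Antigen-presenting and immune-regulatory proteins were also abundant. MHC class II (the IA-IE tag) had 40.0 UMIs per cell, 85.2-fold over the control, and was unevenly spread: its median was 3 UMIs, and 17.7% of its UMIs lay in the top 1% of cells. CD80 had 21.2 and CD86 15.7 UMIs per cell. PIRA-PIRB, which reads the paired immunoglobulin-like receptors, had 28.2 UMIs per cell, and CD16-CD32, the low-affinity Fc gamma receptors, had 12.5. Of 12 checkpoint and adenosine-pathway tags 5 were above the control. The ectonucleotidases CD73 and CD39, which turn extracellular ATP into adenosine, had 10.1 and 6.44 UMIs per cell, and CD274 had 3.27. CD270 (HVEM, the ligand of BTLA) was 25.5-fold over the control.

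Several standard macrophage and monocyte tags were near or under the control although their RNA was plentiful. F4-80, the classical mouse macrophage marker, had 0.772 UMIs per cell, 1.65-fold over the control, with Adgre1 RNA at 157 CPM (UMIs of a gene per 1e6 UMIs in all). The tag for CD192, the chemokine receptor CCR2 that guides monocytes out of the marrow, had 0.144 UMIs per cell, 0.306 of the control, with Ccr2 RNA at 638 CPM. CD68, which lies mostly inside the cell, was at 0.903 of the control with Cd68 RNA at 756 CPM. Of 10 chemokine receptor tags, CX3CR1 alone was above, at 1.29 UMIs per cell. CD68 was chosen after its values were seen. For these tags a low count can come from the antibody as well as from the protein, which was not tested.

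Tags for other cell types stayed mostly at or under the control. Over all kept cells none of 16 T cell tags and none of 10 B cell tags was above it, although 2 of the T cell tags were inside some subset, and no tag had 0 UMIs: CD3e had 5 UMIs in all 9862 cells and ERK1, the lowest of the panel, had 1. Of 7 NK cell tags CD49b was above, at 1.12 UMIs per cell. The only neutrophil tag, Ly6G, was at 1.08 times the control. Of 2 platelet tags CD41 was above, at 2.45 UMIs per cell, and CD62P was at 0.467 of the control. Of 2 red cell tags CD71 was above, and of 3 mast cell and basophil tags none. CD31, CD54 and Ly6A-Ly6E were above among 6 stromal, endothelial and epithelial tags, and myeloid cells are known to carry these proteins too. The remaining 45 tags belong to no list, and 8 of them were above.

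Inside single subsets the count of tags above the control changed little, from 42 of 163 in TAM-3 to 54 in Immature TAM-2. In all 10 subsets 31 tags were above, 19.0% of the panel, and in at least 1 subset 66 were, 40.5%. IgG1-Rat-l was the highest isotype control in each of the 10. F4-80 was 2.96 times and CD169 (sialoadhesin, a sialic acid receptor of macrophages) 3.12 times the control in TAM-4. In the other 9 subsets F4-80 was 0.469 to 1.52 times and CD169 0.529 to 1.90 times their control. Both tags were thus above the limit in TAM-4 although they missed it in the pool, and 16 tags in all did so in some subset. Among them were tags of other cell types: CD4 was 4.61 times the control in Mono/TAM Hypoxic, TCRg-V3 2.56 and 2.79 times in Immature TAM-2 and Monocytes, and Ly6G 2.10, 2.52 and 2.89 times in Immature TAM-2, Monocytes and Mono/TAM Hypoxic. Integrin-b7, just outside the limit in the pool, was 11.8 times the control in Monocytes, 10.1 in Immature TAM-2 and 0.536 in TAM-3. CD300LG was 7.55 times the control in Monocytes and 0.278 in LLC TAM Hypoxic. Both were named here after their values were seen. The subset ratios do not depend on the total of all tags. For CD4, 12 cells with at least 20 UMIs held 39.5% of its UMIs over all kept cells, and the highest count was 680. How far the CD4 ratio in Mono/TAM Hypoxic rests on such cells was not tested.

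The levels of most bright tags differed between the subsets. For this comparison a level is the summed UMIs of a tag over the UMIs of all tags in the subset, scaled in the same way as CPM (tag CPM). Of the 50 tags, 43 differed at least 2-fold between the highest and the lowest subset (86.0%), with a median ratio of 3.62 over the 50. In the RNA of the same cells 2805 of 5556 genes with at least 1000 UMIs did so (50.5%), with a median ratio of 2.01. Among genes of the tagged proteins 55 of 66 did (83.3%), with a median of 4.73. The 50 tags were chosen on all kept cells together, and 31 tags were above the control in every subset. MERTK was above it in 2 subsets, CD49b in 4 and CD301a in 5, so the low end of such ratios lies near background. A gene near 1000 UMIs has few of them in Immature TAM-1, with 73 cells, so counting error can widen its ratio. How far these limits raised the shares was not tested. The sources used here do not say whether tags entered the clustering that made the subsets.

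**Figure D2:**
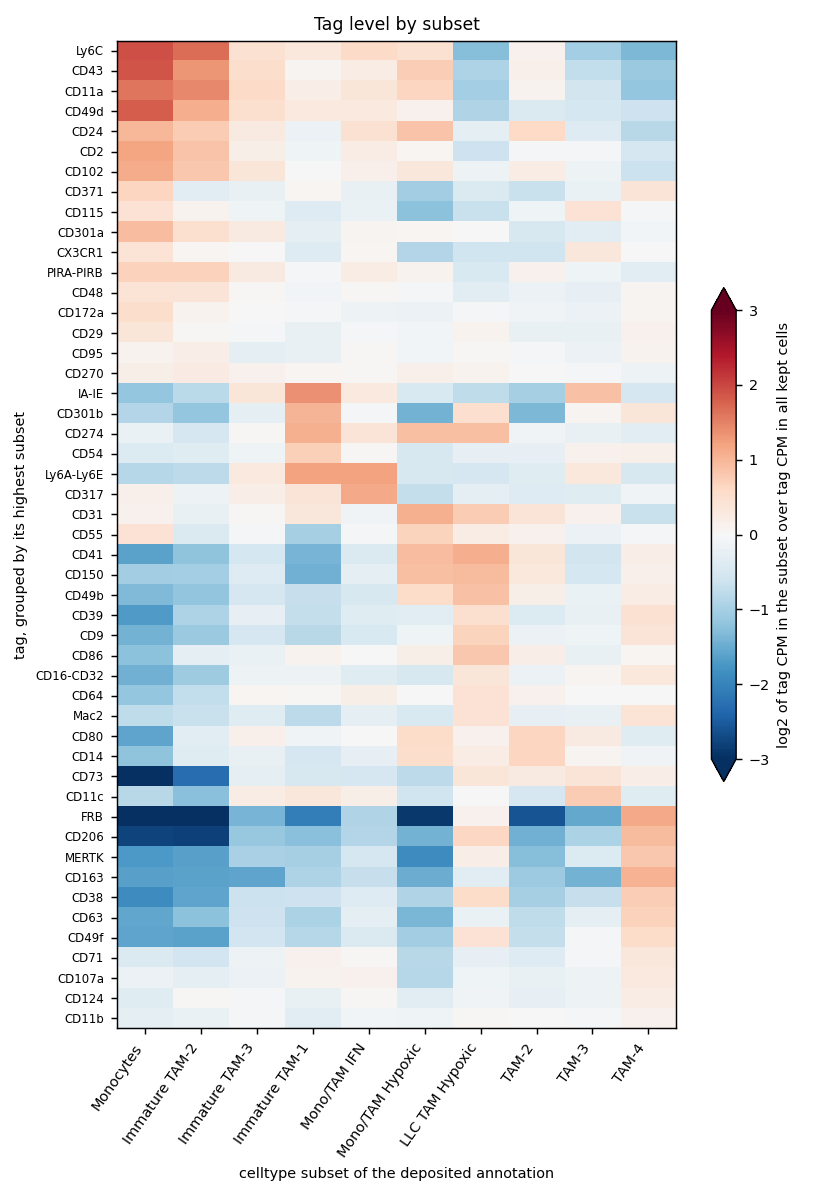
Heat map of 49 of the 50 tags above the isotype control (rows, grouped by their highest subset) in 10 subsets (columns). Colour is the log2 of tag CPM in the subset over tag CPM in all kept cells, clipped at 3 in either direction. Ly6C, CD43, CD11a and CD49d are red in Monocytes and Immature TAM-2, whereas FRB, CD206, MERTK and CD163 are red in TAM-4.

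Depth differed between the subsets and moved with these shares. Median tag UMIs per cell were 265 in Monocytes and 343 in Immature TAM-2, against 744 in TAM-4 and 969 in Immature TAM-3. By tag CPM, 16 of the 50 tags were highest in Monocytes, 11 in TAM-4, 9 in LLC TAM Hypoxic and none in Immature TAM-3. By UMIs per cell, 1 was highest in Monocytes, 17 in TAM-4, 6 in LLC TAM Hypoxic and 20 in Immature TAM-3. The part of cell size and staining in this shift was not tested. For each ratio below, the direction between its 2 subsets was the same in UMIs per cell unless stated. The order of the subsets in between often differed: CD11a had 25.4 UMIs per cell in Monocytes and 26.4 in Immature TAM-2, IA-IE had 64.8 in TAM-3 and 81.2 in Immature TAM-3, and CD41 had 2.83 in TAM-2 and 3.81 in TAM-4, each against its tag CPM.

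Of the 7 tags of the monocyte list 5 were highest in Monocytes by tag CPM. CX3CR1 and CD115, the receptor for CSF-1, had 2570.5 and 3042 tag CPM there and 2461 and 3035 in TAM-3, CD192 was highest in TAM-3, and CD11b was highest in TAM-4. Ly6C and CD43 of that list, and the integrins CD11a and CD49d, were next highest in Immature TAM-2. Ly6C, the GPI-anchored antigen that marks inflammatory monocytes, had 103773 tag CPM in Monocytes and 86375 in Immature TAM-2. In the other subsets Ly6C ran from 40173 tag CPM in Mono/TAM IFN down to 10596 in TAM-4. Its ratio of Monocytes to TAM-4 was 9.79 (9.63 to 9.96), and 3.70 in UMIs per cell. The same order at the top held for CD43, at 75238 tag CPM in Monocytes and 51430.1 in Immature TAM-2 against 9381 in TAM-4, and for CD11a, at 74457 and 66167 against 10899. CD43 is a large sialomucin, and CD11a pairs with CD18 to bind ICAM-1. CD49d, the alpha-4 integrin that binds VCAM-1, had 5454 tag CPM in Monocytes and 832 in LLC TAM Hypoxic, a ratio of 6.55 (5.79 to 7.43), and in LLC TAM Hypoxic it was 1.05 times the isotype control. In UMIs per cell the highest subset of Ly6C, CD43, CD11a and CD49d was Immature TAM-3.

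Of the 13 tags of the macrophage list 7 were highest in TAM-4, the largest subset, among them FRB, CD206, MERTK and CD163. Other receptors of the list were not: CD204, the scavenger receptor Msr1, had 1697 tag CPM in LLC TAM Hypoxic and 1228 in TAM-4, and CD36, a fatty acid and lipoprotein receptor, had 2912 in Monocytes and 418 in TAM-4. Of the 7 tags highest in TAM-4, the 4 named were those above the control over all kept cells. The rest included Tim4, at 0.340 of the control in kept cells. Most Tim4 UMIs lay in cells left out: it had 24255 in all cells and 1571 in kept cells. IgG1-Rat-l had 9012 and 4625, so with no cell left out Tim4 exceeded the control. In 7 kept cells with at least 20 Tim4 UMIs, Timd4 RNA was 63.7 CPM against 0.166 in other cells, from too few UMIs for a ratio. In TAM-4 itself Tim4 had 0.305 UMIs per cell beside 0.682 of IgG1-Rat-l. Among the 50 tags above the control 11 were highest in TAM-4, and the share among all 163 tags was not counted. FRB had 24575 tag CPM in TAM-4 and 12150 in LLC TAM Hypoxic. It had 5984 in Mono/TAM IFN, 4195 in Immature TAM-3, 3821 in TAM-3, 2653 in Immature TAM-1, 1853 in TAM-2 and 1485 in Mono/TAM Hypoxic. The lowest FRB levels were 1184 tag CPM in Immature TAM-2 and 849.6 in Monocytes. The ratio of TAM-4 to Monocytes was 28.9 (25.5 to 33.0), and 76.5 in UMIs per cell. The cells barely overlapped: TAM-4 had FRB quartiles of 12 and 30 UMIs, whereas 20.4% of Monocytes had any FRB UMI. Monocytes had 0.290 FRB UMIs per cell beside 0.209 of IgG1-Rat-l, so the low end of this ratio lies near the background of the antibodies.

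CD206 had 7099.8 tag CPM in TAM-4 and 5712 in LLC TAM Hypoxic, between 1351 and 2005 in 6 other subsets, and 536 in Monocytes and 526 in Immature TAM-2. Its ratio of TAM-4 to Immature TAM-2 was 13.5 (11.8 to 15.6), and the isotype control in Immature TAM-2 was at 510.4 tag CPM. MERTK, a receptor for dying cells, was highest in TAM-4 at 2540.4 tag CPM and lowest in Mono/TAM Hypoxic at 390.4, a ratio of 6.51 (5.44 to 7.85). In Mono/TAM Hypoxic MERTK was 0.726 of the isotype control, and it passed the 2-fold limit in TAM-4 and LLC TAM Hypoxic alone. CD163, the scavenger receptor for haemoglobin-haptoglobin, had 9274 tag CPM in TAM-4 and 1454 in Monocytes. Few cells carried this: the median CD163 count in TAM-4 was 1 UMI and the 99th percentile 193, and 158 of the 199 cells with at least 20 UMIs were there. CD38, an NAD-consuming ectoenzyme, had 7251 in TAM-4, 6367 in LLC TAM Hypoxic and 1174 in Monocytes. For all 5 of these tags the second highest subset was LLC TAM Hypoxic, where CD163 had 3637 tag CPM. With the highest isotype control subtracted, the log2 ratio was 6.65 in place of 4.85 for FRB and 8.69 in place of 3.76 for CD206. It was 7.54 in place of 2.70 for MERTK and 6.89 in place of 2.71 for CD49d. These ratios thus depend on the background at their low end. For MERTK, which lay under the control in Mono/TAM Hypoxic, the subtracted level was set to 3 counts, so 7.54 follows from that setting. For CD206 little was left in Immature TAM-2, with 526 tag CPM beside 510.4 of the control.

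Promoters are shown for FRB and CD206, which were highest in the same subset and correlated over cells, and for CD43, which was lowest there. The sequences are from RefSeq on GRCm38.p6, the assembly of the mm10 files, and run from 250 bases before to 50 after the annotated gene start. They are written 5′ to 3′ on the gene's strand: Folr2 at chr7:101857141-101857440 (minus), Mrc1 at chr2:14229164-14229463 (plus) and Spn at chr7:127137774-127138073 (minus). Capitals mark the motif GAGGAA, bound by PU.1-type factors, on either strand.
Folr2: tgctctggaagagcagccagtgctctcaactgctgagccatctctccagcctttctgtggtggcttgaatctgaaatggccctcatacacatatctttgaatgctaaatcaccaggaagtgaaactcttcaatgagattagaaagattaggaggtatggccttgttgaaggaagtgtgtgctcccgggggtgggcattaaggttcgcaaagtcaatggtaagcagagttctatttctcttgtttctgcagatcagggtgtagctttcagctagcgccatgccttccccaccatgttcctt
Mrc1: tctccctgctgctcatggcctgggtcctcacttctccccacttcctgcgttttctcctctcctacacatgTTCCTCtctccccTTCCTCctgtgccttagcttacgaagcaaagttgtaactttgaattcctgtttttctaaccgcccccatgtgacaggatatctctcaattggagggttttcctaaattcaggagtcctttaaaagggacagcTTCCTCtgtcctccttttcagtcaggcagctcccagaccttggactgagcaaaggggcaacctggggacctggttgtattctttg
Spn: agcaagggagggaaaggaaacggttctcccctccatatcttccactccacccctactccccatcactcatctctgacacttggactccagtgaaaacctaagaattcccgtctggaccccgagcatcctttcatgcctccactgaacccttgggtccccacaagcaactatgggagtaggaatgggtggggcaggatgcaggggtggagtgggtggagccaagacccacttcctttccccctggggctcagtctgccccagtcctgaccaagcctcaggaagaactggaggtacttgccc
GAGGAA occurred 3 times in the Mrc1 window and not in the Folr2 or Spn windows. Of 32851 promoters of this length 28.3% hold it. The letters TGANTCA (bound by AP-1), TTGCGNAA (C/EBP) and TGCTGAC (MAF), searched on both strands, were in none of these windows and are in 7.81%, 0.798% and 4.67% of all promoters. With matches to GAGGAA alone, no overlap between motifs could arise in these windows.

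The ectonucleotidase CD73 was lowest in Monocytes and Immature TAM-2 and varied among the macrophage subsets. It had 19938 tag CPM in TAM-3, 19820.3 in LLC TAM Hypoxic, 18529 in TAM-2 and 17558 in TAM-4, and TAM-3 and LLC TAM Hypoxic did not differ beyond counting error. CD73 had 3154 tag CPM in Immature TAM-2 and 1908 in Monocytes, and the ratio of TAM-3 to Monocytes was 10.4 (9.59 to 11.4). Its partner enzyme CD39 was highest in LLC TAM Hypoxic at 13632 and in TAM-4 at 13247 tag CPM, and lowest in Monocytes at 2995. In UMIs per cell both enzymes were highest in TAM-4.

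LLC TAM Hypoxic held the highest level of 9 tags, all called at 2-fold. CD86 had 41477 tag CPM there and 10163 in Monocytes, a ratio of 4.08 (3.92 to 4.25). CD16-CD32 had 24061 there and 6912 in Monocytes, and CD64 had 2475 and 821. Mac2 had 34231 tag CPM in LLC TAM Hypoxic and 33282 in TAM-4, against 14611 in Immature TAM-1. CD41, CD150 and CD49b, described further on, were also highest in LLC TAM Hypoxic. In UMIs per cell CD86, CD41, CD150 and CD49b were still highest there, whereas CD16-CD32, Mac2 and CD39 were highest in TAM-4 and CD64 in Immature TAM-3. CD80 went another way, with 49852 tag CPM in TAM-2, 46572 in Mono/TAM Hypoxic and 10638 in Monocytes, and its highest level in UMIs per cell was in Immature TAM-3.

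MHC class II was highest in Immature TAM-1 at 155885 tag CPM and in TAM-3 at 110977. It followed with 77433 in Immature TAM-3, 74286 in Mono/TAM IFN, 44101 in Mono/TAM Hypoxic and 42482 in TAM-4. The lowest IA-IE levels were 35702 tag CPM in LLC TAM Hypoxic, 34685 in Immature TAM-2, 30024 in TAM-2 and 27195 in Monocytes. Immature TAM-1 over Monocytes was 5.73 (5.55 to 5.92). Within every subset the cells were of mixed levels, and those with 5 or fewer IA-IE UMIs made up 26.0% of Immature TAM-1 and 84.0% of Monocytes. Over all kept cells 60.1% had 5 or fewer and 19.0% had 50 or more, and these 1874 cells held 87.4% of the UMIs of the tag. The share of cells with 50 or more was 41.1% in Immature TAM-1, 38.2% in Immature TAM-3, 33.2% in TAM-3, 23.4% in Mono/TAM IFN and 4.79% in Monocytes.

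Cells with 50 or more IA-IE UMIs also carried more of other tags, and their tag totals were higher. Their median total was 814 tag UMIs, against 469 in the 5928 cells with 5 or fewer. These totals include the IA-IE UMIs by which the cells were chosen. The totals without them were not computed. CD11c had 21.2 UMIs per cell in the former and 3.59 in the latter, and CD301b (the C-type lectin Mgl2) had 4.79 and 0.730. CD11b differed less, at 276 and 198 UMIs per cell, and FRB did not follow, at 6.86 and 7.16. All 12 tags of the dendritic cell list had more UMIs per cell in the former, but these counts are not corrected for depth. The same count over all tags was not made, and 7 of the 12 were under 1 UMI per cell in both. XCR1 had 0.0710 and 0.0489 UMIs per cell, CD135 (Flt3) 0.0720 and 0.0346, and CD26 0.685 and 0.242. Of 12 dendritic cell tags 5 were above the control in the pool, CD11c, CD24, CD301b, CD172a and CD317. The part of dendritic cells in the IA-IE pattern was not tested. The limits of 5 and 50 UMIs were chosen after the values were seen.

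The inhibitory ligand CD274 had its highest levels in Immature TAM-1 at 10289.7 tag CPM and in the 2 hypoxic subsets, at 9236 in Mono/TAM Hypoxic and 9166 in LLC TAM Hypoxic, which did not differ beyond counting error. In the other 7 subsets it lay between 3491 and 6468 tag CPM. In UMIs per cell CD274 was highest in LLC TAM Hypoxic. CD317 (tetherin, encoded by Bst2) and Ly6A-Ly6E (Sca-1), both known to respond to interferon, were highest in Mono/TAM IFN, at 3534 and 13859.7 tag CPM. Ly6A-Ly6E had 13755 tag CPM in Immature TAM-1, not different beyond counting error, and its Ly6a RNA was highest there, at 511 CPM against 456 in Mono/TAM IFN. CD317 was lowest in Mono/TAM Hypoxic at 973 and Ly6A-Ly6E in Monocytes at 3316 tag CPM. These last tags were chosen after their values were seen.

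A group of 7 tags did not reach 2-fold, and several of them changed direction with the scale. CD11b ran from 371448 tag CPM in TAM-4 to 269135 in Immature TAM-1, a ratio of 1.38 (1.36 to 1.40). CD270 had a ratio of 1.31 between Immature TAM-2 and TAM-4, CD48 of 1.69 between Monocytes and LLC TAM Hypoxic, CD29 of 1.51 between Monocytes and Immature TAM-1, and CD172a (SIRP-alpha, the receptor of CD47) of 1.64 between Monocytes and TAM-3. In UMIs per cell the same pairs gave 0.581, 0.783, 0.806 and 0.954, each the other way round. CD95, the death receptor Fas, had 1.37 between Immature TAM-2 and Immature TAM-3 and 0.522 in UMIs per cell, and CD124, the IL-4 receptor alpha chain, had 1.51. No direction is read for CD270, CD48, CD29, CD172a and CD95.

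The co-variation of tags was measured over 9862 cells after each tag was centred in its subset, so that differences between subsets do not enter. On the centred log ratio scale the 36 pairs of isotype controls already correlated at a median r of 0.42, up to 0.64, whereas the 1225 pairs of the 50 tags had a median of 0.05 and a highest value of 0.61. On this scale antibodies with no target thus reached an r as high as the best tag pairs. On log counts without the centring of each cell over its tags, the isotype pairs had a median r of 0.02, up to 0.06. The tag pairs had a median of 0.19 there, up to 0.65. The high r of isotype pairs thus came with the centring of each cell and is not read as shared staining. On residuals of log counts after the total tag and RNA UMIs, the isotype pairs had a median r of 0.01 and a highest of 0.03, and the tag pairs a median of 0.02. The centred log ratio and residual values are given below, and all are descriptions over cells that share 1 library and its depth. A large tag lowers the residuals of others because it is part of the total, and CD11b is 34.2% of it.

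The pairs with the highest centred log ratio fell into groups. CD150 and CD41 had r = 0.61 on both scales, and CD11a and CD43 had 0.58, with 0.52 as residuals. CD41 and CD49b had 0.50 and 0.51, CD150 and CD49b 0.45 and 0.47, and CD11c and IA-IE 0.49 and 0.40. Within single subsets the residual r ran from 0.26 to 0.73 for CD150 with CD41, from 0.31 to 0.80 for CD11a with CD43 and from 0.25 to 0.53 for CD11c with IA-IE, and the centred log ratio from 0.13 to 0.73, 0.44 to 0.77 and 0.30 to 0.65. The next pairs were CD11b with CD80, CD14, CD16-CD32 and PIRA-PIRB, at 0.45, 0.43, 0.42 and 0.42, but their residuals correlated at 0.07, 0.10, 0.12 and 0.06. CD14 and CD80 had 0.41 and 0.20. The pairs with CD11b thus lost most of their r on residuals. After thinning each cell to 200 tag UMIs, CD150 with CD41 had 0.47, CD11a with CD43 0.43, CD11c with IA-IE 0.36 and CD11b with CD80 0.04.

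Opposed pairs were weaker. Among the most negative centred log ratios were CD11a with FRB and CD11c with Ly6C, at -0.17 each. As residuals these had r of -0.24 and -0.22. The residual scale put other pairs further out, such as CD11b with IA-IE at -0.42, which was 0.04 on the centred log ratio. CD206 and FRB, both highest in TAM-4, also went together inside subsets, at 0.32 and 0.33. CD163, highest there too, had 0.09 and 0.10 with FRB, a pair chosen after its values were seen. CD43 with Ly6C had 0.32 on both scales but ran from -0.36 to 0.65 between subsets as residuals. Without centring in subsets the centred log ratios of CD206 with FRB had r = 0.62 and those of CD11a with CD43 0.72.

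**Figure D3:**
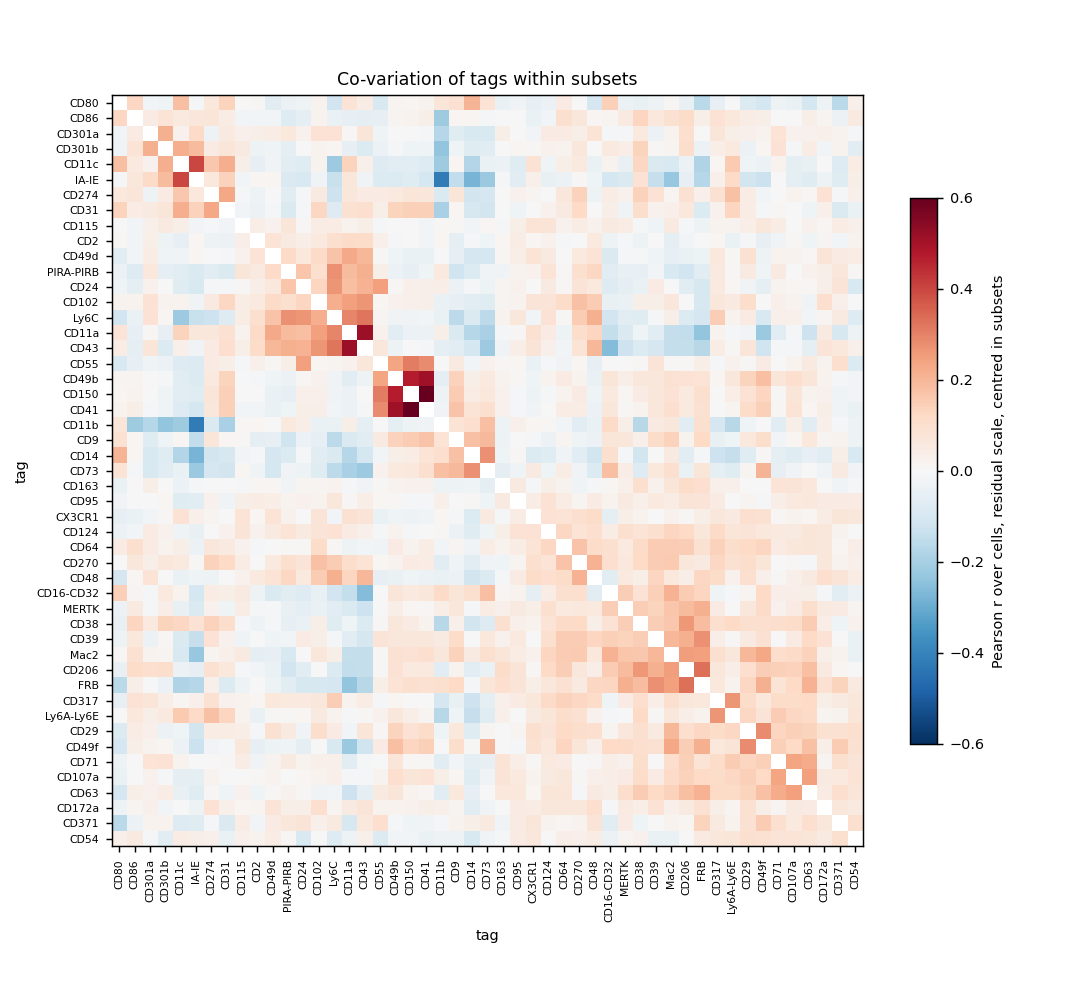
Pearson r between 49 of the 50 tags above the isotype control (both axes, in the order of average-linkage clustering) over 9862 cells, on the residual scale and centred in subsets. Red blocks join CD41, CD150 and CD49b, and CD11a, CD43 and Ly6C, and the deepest blue cell is CD11b with IA-IE at -0.42.

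CD41, CD150 and CD49b formed the tightest group. CD41 is the alpha-IIb integrin of platelets and megakaryocytes, CD150 (SLAM) a receptor of lymphocytes, platelets and stem cells, and CD49b the alpha-2 integrin of NK cells and platelets. Of the other 162 tags, the 5 that correlated best with CD41 as residuals were CD150 at 0.61, CD49b at 0.51, CD226 at 0.35, CD55 at 0.28 and ESAM at 0.20. Cells without a CD41 UMI (4674 cells) had 0.343 CD150 and 0.408 CD49b UMIs per cell. The 305 cells with 16 or more had 16.1 and 10.2. CD226 went from 0.0941 to 1.99 and ESAM from 0.0813 to 0.872 UMIs per cell. Between the same cells the summed isotype controls went from 0.749 to 1.53. The median tag total, CD41 included, went from 442 to 959. CD62P, the selectin of activated platelets, had 0.191 and 0.308 UMIs per cell. The bins of CD41 counts and the tags CD226, CD55 and ESAM were chosen after their values were seen.

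RNA of the same cells could be read for CD49b and CD150 but not for CD41. Itga2, the gene of CD49b, had 0 RNA UMIs in the kept cells and Slamf1, the gene of CD150, had 4, with Itga2b not analysed here. The platelet chemokine gene Ppbp had 7.05 RNA CPM in cells without a CD41 UMI and 136 in cells with 16 or more. Pf4, which macrophages also express, had 789.8 and 2177 RNA CPM. Of other platelet genes, Nrgn, with 16 UMIs in all, had 0.183 and 2.37 RNA CPM, Itgb3 had 35 UMIs with none in the latter cells, and Clec1b had no UMI. Over cells, r with the CD41 residual was 0.09 for Ppbp and 0.10 for Pf4. The part of platelets attached to the cells in this group of tags was not tested.

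**Figure D4:**
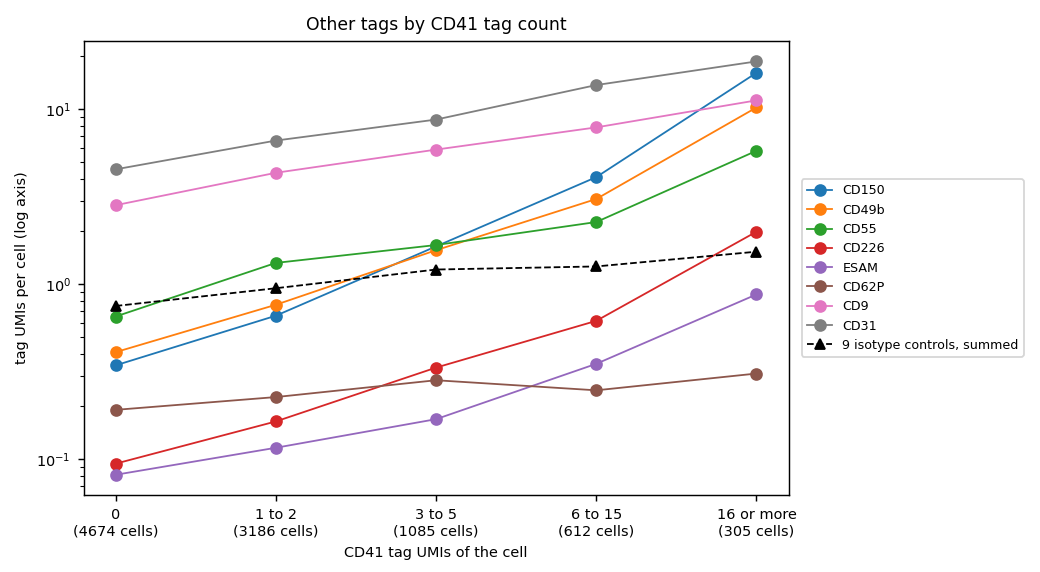
Mean UMIs per cell (log axis) of 8 tags and of the 9 summed isotype controls in bins of kept cells by their CD41 tag UMIs, with the number of cells under each bin. CD150 climbs from 0.343 to 16.1 and CD49b from 0.408 to 10.2, while CD62P stays between 0.191 and 0.308.

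By tag CPM this group was highest in the subsets whose labels say hypoxic. In UMIs per cell CD41 and CD150 were highest there as well, CD41 with 3.97 in Mono/TAM Hypoxic and 3.81 in TAM-4. CD49b had 2.27 UMIs per cell in LLC TAM Hypoxic, 1.78 in TAM-4 and 1.39 in Mono/TAM Hypoxic. CD41 had 7869 tag CPM in LLC TAM Hypoxic and 7060 in Mono/TAM Hypoxic, 4793 in TAM-2 and 4221 in TAM-4, and 1213 in Monocytes. The ratio of LLC TAM Hypoxic to Monocytes was 6.49 (5.79 to 7.28). CD150 had 3827 and 3696 tag CPM in the 2 hypoxic subsets and 727 in Immature TAM-1, and CD49b 3087 and 2467 against 669.6 in Monocytes. The platelet list of 2 tags summed to 1458 tag CPM in Monocytes and to 8146 in LLC TAM Hypoxic. The NK cell list of 7 tags summed to 1942 in Immature TAM-2 and to 5282 in LLC TAM Hypoxic, CD49b being 1 of the 7. No tag of either list was at 0, and CD62P, the lower platelet tag, had 2162 UMIs.

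A few tags owed their level to a small number of very bright cells, chosen here after seeing the values as cells with at least 20 UMIs of the tag. For CD163, 199 cells held 65.8% of its UMIs, and 158 of them were in TAM-4. Their Cd163 RNA was 29.6 CPM against 0.878 in all other cells, a ratio of 33.7 (22.2 to 51.2). For CD301b, 158 cells held 48.2% of the UMIs, 75 of them in TAM-4, and their Mgl2 RNA was 465 against 34.1 CPM, a ratio of 13.6 (12.5 to 14.9). The bright CD301b cells had 213 IA-IE UMIs per cell against 37.1 in other cells. In both cases the RNA of the same gene was higher in the bright cells. Their median tag totals, which include the tag itself, were 1059 and 1078 UMIs.

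For other tags the RNA was too thin to compare or differed less. For VSIG4, a complement receptor of resident macrophages, 12 cells held 50.2% of the UMIs and had 0 Vsig4 RNA UMIs, where other cells had 4.36 CPM. The 0 allows a ratio of up to 9.45, so the difference was not detectable at this depth. For CD335 (NKp46), 23 cells held 62.0% of the UMIs with 0 Ncr1 UMIs, against 5 in all other cells, too few for a ratio. For CD304 (neuropilin-1), 10 cells held 38.7% and had Nrp1 RNA 2.88-fold (1.44 to 5.16) over other cells. Cells bright for these tags had medians of 930.0 to 1253 tag UMIs, above the median of 536 of all kept cells. These totals include the tag by which the cells were chosen.

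Tag and RNA were then compared over the 10 subsets by Spearman's rho. Among 46 tags above the control with at least 20 RNA UMIs the median rho was 0.66, 21 exceeded 0.7, 3 were below 0, and 24 had the same highest subset in both. Among 61 tags not above the control the median was 0.47. The 10 points share 1 library and the RNA from which the annotation may have been made, so rho is a description. Among the highest were FRB with Folr2 at 0.98, CD11c with Itgax and CD49f (the alpha-6 integrin) with Itga6 at 0.96, and CD63, a tetraspanin of endosomes, with Cd63 at 0.94.

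Folr2 RNA was at 366 CPM in TAM-4, 192 in LLC TAM Hypoxic, 94.9 in Mono/TAM IFN, 12.6 in Monocytes and 10.4 in Immature TAM-2, nearly the order of the FRB tag. Its RNA ratio of highest to lowest was 35.2 beside 28.9 for the tag. For CD206 rho was 0.68: Mrc1 was at 479.7 CPM in TAM-4 and 437 in LLC TAM Hypoxic, 233 in Mono/TAM Hypoxic, and 18.9 in Monocytes. For MHC class II rho was 0.85, with summed RNA of H2-Aa, H2-Ab1 and H2-Eb1 from 973 CPM in LLC TAM Hypoxic to 9115 in Immature TAM-1. F4-80 had rho 0.82 and CD169 0.92 although both were under the limit over the isotype control, and the highest CD169 tag was in TAM-4 while its RNA, Siglec1, was highest in Mono/TAM IFN.

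**Figure D5:**
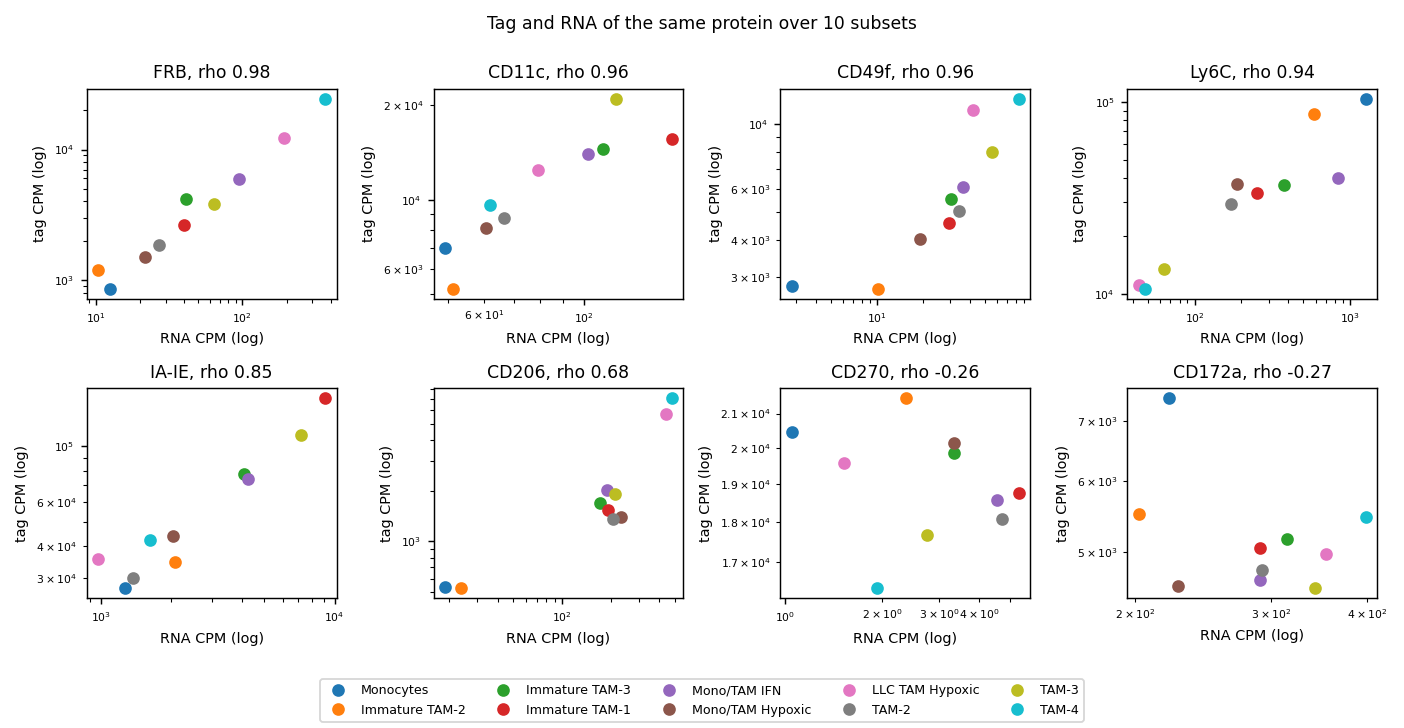
Tag CPM against RNA CPM of the same protein (log axes) in 10 subsets, 1 point each, for 8 tags. FRB, CD11c, CD49f and Ly6C lie close to a rising line, IA-IE and CD206 rise with scatter, and CD270 and CD172a do not rise.

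The lowest rho values were CD172a with Sirpa at -0.27, CD270 with Tnfrsf14 at -0.26, CD301a with Clec10a at -0.20, CD29 with Itgb1 at 0.09 and Mac2 with Lgals3 at 0.12. For 3 of these the tag hardly varied between subsets, with ratios of 1.64 for CD172a, 1.31 for CD270 and 1.51 for CD29. In UMIs per cell the rho of CD172a was 0.77, that of CD270 0.14 and that of CD301a 0.12, and that of CD29 was 0.70, or -0.67 over isotype UMIs, so their sign follows the scale. The tags of Mac2 and CD301a varied more between subsets, with ratios of 2.34 and 2.62. In both, tag and RNA had different highest subsets, and the RNA ratio of Mac2 was 2.73. CD192 had rho 0.01 with its tag under the control. Over 141 tags with RNA, the rho of tag level with RNA level was 0.60, and over the 49 above the control 0.37. Antibodies differ in affinity, so tag counts of different proteins do not rank their amounts.

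The RNA of the tagged proteins was compared with the other libraries, which were not stained with tags in these files. Of 52 genes of the 50 tags, 7 were at least 1.5-fold higher and 7 lower in the CITE-seq LLC library than in the other LLC library, whose strain also differs. Over all 11307 genes 3.03% were higher and 2.81% lower. Against B16, 12 were higher and 15 lower, where 9.93% and 11.0% of 11350 genes were. The median log2 ratio of the 52 was 0.05 against LLC and -0.10 against B16, and over all genes 0.02 and 0.04. Tumour, cell mix and library cannot be told apart here. With equal weights for subsets of at least 50 cells in both libraries, 3 genes were higher than in LLC and 5 higher than in B16. That took 9 subsets for LLC and 4 for B16, where TAM-1, TAM-2, TAM-3 and TAM-4 dropped out. The counts of lower genes stayed within 1.5-fold. The share over all genes was not counted at this setting.

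Folr2 was at 178 CPM in the CITE-seq LLC library, 174 in LLC and 22.0 in B16, a ratio to B16 of 8.06 (7.39 to 8.80). Mrc1 was at 306, 344 and 176 CPM, and Nt5e, the gene of CD73, at 22.0, 38.3 and 5.65 CPM. Class II genes lay the other way, with H2-Aa at 1114 CPM in the CITE-seq LLC library, 699 in LLC and 3407 in B16. Cd274 was at 37.7, 45.9 and 125 CPM. Of the B16 cells 518 were Immature TAM-1 and 941 were TAM-1, subsets with 76 and 4 cells in the tagged library, while TAM-4 had 2 B16 cells. Itgax differed between the LLC libraries, at 81.1 and 36.5 CPM, a ratio of 2.22 (2.11 to 2.34), and so did Pira2, at 106 and 353 CPM.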

How the data were processed

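Tags and RNA were measured in monocytes and macrophages of LLC tumours. The authors deposited whole-number UMI counts per cell for tags and RNA, with their subset names. Per the submitters' processing notes, Cell Ranger and mm10 were used. Its version, the antibody clones, the sort and the clustering are unstated in the sources at hand. The members and lists were chosen with earlier results of these data known.

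From the counts, summed UMIs per subset were divided by the subset's total, or by its cells. A tag above the isotype control is at least 2-fold over the highest one, a difference between subsets at least 2-fold, and between libraries at least 1.5-fold with at least 20 UMIs, by size alone. Subset sums under 3 counts were set to 3. No doublet caller was run, and cells of extreme tag totals or isotype sums were left out. Intervals are exact Poisson or conditional binomial at 95%. UMI counts limit precision, at a median of 536 tag UMIs per kept cell. Named tags are the 20 highest, the 15 with the largest subset ratio, the 10 highest and 5 lowest pairs, the 5 highest and 5 lowest rho, and a fixed list. Others are named as list examples by size or said to be chosen afterwards. Residual correlations centred counts and totals in subsets before the regression, an order set after a test on simulated data. Alternatives are in the closing section. Python 3.11.15, numpy 2.4.6, pandas 2.3.3 and scipy 1.17.1 were used. Of the tags above the control, 1 that the naming rule takes is counted but not reported here by name.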

Additional observations from a re-analysis of the deposited data

How the results depend on the processing

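Alternatives to 2-fold over the highest isotype control in cells of middle tag counts left 38 to 59 tags above it, except the mean of the controls (92 tags) and the second highest control (77). The count of tags at least 2-fold between subsets was 43 of 50 and ranged from 33 with no cell left out to 50 in UMIs per cell. The 33 are among the 38 tags above the control in that setting, so the 2 counts have different denominators. Of 37 tags taken by the naming rule, 4 turned round between their highest and lowest subset in 1 of the settings run, UMIs per cell: CD48 at -0.35, CD270 at -0.78, CD29 at -0.31 and CD172a at -0.07 on the log2 scale. CD95, outside that rule, turned round as well, at a ratio of 0.522. No direction turned with the highest isotype control subtracted or with the 5 most abundant tags out of the total, but 28 and 34 of these results moved beyond their counting interval. The median r of tag pairs was 0.05, and 0.19 for log counts, 0.02 for residuals and 0.00 after thinning each cell to 200 tag UMIs, which left out 217 cells. Spearman's rank correlation of tag and RNA changed sign for CD29 (-0.67 over isotype UMIs, -0.05 with no cell left out), CD301a (0.12 in UMIs per cell), CD270 (0.14 in UMIs per cell, 0.03 over isotype UMIs) and CD172a (0.77 in UMIs per cell). With subsets weighted equally, the genes higher than in LLC fell from 7 to 3 (9 subsets) and those higher than in B16 from 12 to 5 (4 subsets). The cause was not tested. No paired analysis was possible because each group is 1 library. Depth limits the tags near the isotype control: that control had a UMI in 32.6% of cells. Without TAM-4, 52 tags were above, and without Monocytes and Immature TAM-2, 38 differed between subsets. The settings with the second control, without TAM-4, without Monocytes and Immature TAM-2, with the brightest 1% of cells left out (41 tags) and, for the count between subsets, thinned to 200 tag UMIs (43 tags) were chosen after seeing the data.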
